A study of Homo sapiens with 6 samples.

Results

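The genes described are those of the proteasome, the protease that degrades ubiquitin-tagged proteins. They were taken by name and annotation alone: protein-coding genes whose symbol begins with PSMA to PSMG followed by a digit, together with POMP, ADRM1, NFE2L1 and NFE2L2. The rule found 51 of the 32575 genes listed in the deposited data, of which 16555 are protein-coding. All 51 passed the filter on low values, and 28388 genes passed it in all. PSMC3IP matches the rule by its symbol but encodes a partner of a meiotic recombination factor, so 50 of the 51 are proteasome genes in the strict sense. By role, 14 encode the core particle, 18 the regulatory cap, 8 assembly chaperones, 5 the immunoproteasome and its activator PA28, 3 other activators or inhibitors, and 2 transcription factors. A further 15 noncoding entries with a PSM symbol, mostly pseudogenes and antisense transcripts, were left out.

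Messenger RNA came from SH-SY5Y, a human neuroblastoma line, and the design has 3 groups of 2 libraries. Control cells carried a control hairpin. CSA knockdown cells carried a hairpin against CSA (gene ERCC8), and CSB knockdown cells a hairpin against CSB (gene ERCC6). All 3 groups, controls included, were lentivirally transduced, selected in puromycin and kept for 2 to 3 weeks, and the labels call the depleted cells mutants although the protocols describe hairpins. The labels name neither the hairpin sequences nor separate transductions for the 2 libraries of each group. The p-values therefore measure the spread between these libraries, which may be technical. CSA is the substrate receptor of a ubiquitin ligase, CSB remodels chromatin, and cells need both to repair DNA damage that stalls transcription. The comparisons ask how the transcript levels of the degradation machinery stood when either protein was depleted.

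The proteasome core is a barrel of stacked rings. The outer alpha rings gate the entry, and the inner beta rings hold the catalytic subunits PSMB5, PSMB6 and PSMB7. The cap sits on the barrel, where its lid and base bind and deubiquitinate substrates and its ATPases unfold them. Under interferon, PSMB8, PSMB9 and PSMB10 take the place of the catalytic subunits and form the immunoproteasome. When proteasome activity drops, the transcription factor NRF1 (gene NFE2L1) is processed and raises proteasome genes together through antioxidant response elements in their promoters.

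The libraries held 19368272 to 26758162 reads assigned to genes, and 5.73 to 6.51% of them were mitochondrial. Values below are scaled counts, the deposited values, which are gene reads divided by 1 size factor per library. Each target was lower in its own group: ERCC8 had scaled counts of 219 and 217 in control cells and 61.8 and 57.2 with CSA depleted, and ERCC6 had 615 and 593 in control cells and 258 and 302 in the CSB knockdown. Of 8 noradrenergic neuroblastoma markers, all 8 were detected, with a summed scaled count of 73414 to 82392 per library, although TH lay between 2.86 and 20.3. Of 13 markers of blood, endothelial, epithelial and fibroblast cells, 6 were not listed at all. The other 7 summed to 2415 and 2406 in control cells, 2078 and 2109 with CSA depleted and 3813 and 3763 with CSB depleted. The difference lay mostly in PDGFRB and DCN, while PTPRC was at 0 in all 4 knockdown libraries and at most 3.86 in control cells. The part of these markers in the results below was not tested.

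In the CSB knockdown, proteasome transcripts were mostly lower, by modest amounts, and most core genes were among those that fell. In a culture measured in bulk, fewer cells of one kind and less RNA per cell cannot be told apart. A gene is said to have risen or fallen where its limma test, adjusted over all genes tested, gave p below 0.05. Of the 51 genes, 21 fell and 3 rose against control, while 8.86% of all genes tested fell and 14.8% rose. High counts make calls easier, so the shares were also taken over the 7976 genes whose scaled counts averaged 500 or more. Of the 42 proteasome genes among them, 18 fell (42.9%) and 2 rose, where 21.5% of all such genes fell and 29.6% rose. The CSB libraries lay wholly below the controls for 35 of the 51 genes and above them for 9, where 22.2% of all genes lay below and 36.5% above. Such shares of libraries that do not overlap were not taken over genes averaging 500 or more, here or below. The median log2 fold change was -0.12 over the proteasome genes and 0.10 over all genes tested. The fall of single genes was small, since 20 of the 21 lost less than 30% of their control level, and PSMB9 is the exception. Leaving out 1 library reduced the calls from 24 to 4 (control replicate 1), 4 (control replicate 2), 5 (CSB replicate 1) and 4 (CSB replicate 2), or to 19 and 16 without CSA replicates 1 and 2. PSMA4, PSMA7 and PSME3 fell whichever of the 6 libraries was left out.

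The scaling of the libraries bears on the direction. With the deposited size factors, 62.5% of all genes called in the CSB knockdown were higher (4191 higher, 2515 lower), whereas TMM scaling gave 47.3% (2766 higher, 3082 lower). The median of all genes moved from 0.10 to -0.01 when a gene length trend was removed, the largest move among the 5 other scalings. All 21 falls were called in each of those 5 scalings. Under them 26 to 33 proteasome genes fell and 0 rose by limma, with 0 to 3 genes higher at an unadjusted p below 0.05. Of all genes tested, 10.3 to 12.9% then fell, and 2697 to 3014 genes rose. Each of these scalings also moved the proteasome median in the CSB knockdown down, from -0.12 to between -0.22 and -0.18. Such a shift favours keeping falls and losing rises, so these calls are no separate check on the direction. On recovered reads, edgeR called 33 genes lower and 0 higher, and DESeq2 31 lower and 0 higher, with 4 and 1 higher at an unadjusted p below 0.05. The 3 rises, of NFE2L1, PSMF1 and PSMC3IP, were called with the deposited size factors only.

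In the CSA knockdown, 7 of the 51 genes fell and 1 rose, while 10.4% of all genes tested fell and 8.37% rose. Among the 42 genes averaging 500 or more, 7 fell (16.7%) and 1 rose, where 22.7% of all such genes fell and 17.9% rose. The CSA libraries lay below the controls for 22 of the 51 genes and above them for 6, against 27.1% and 26.4% of all genes. The median log2 fold change was -0.05, with 0.00 over all genes tested. The share that fell was below the background among genes with such counts. The share of genes whose CSA libraries lay below the controls was above that of all genes tested. It was not compared with genes of such counts. Without control replicate 1 or control replicate 2, limma called 0 genes, although 12 and 7 of the 51 were lower at an unadjusted p below 0.05. It called 6 without CSA replicate 1, 1 without CSA replicate 2, 3 without CSB replicate 1 and 4 without CSB replicate 2. With all libraries, edgeR called 8 genes and DESeq2 6.

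The knockdowns share their control libraries, so their values are set side by side. PSMA4, PSMA7, PSMB3, PSMC6 and PSMD12 fell in both, and 15 genes fell in the CSB knockdown alone by the threshold. PSMC2 and PSMG3 fell in the CSA knockdown alone, and 25 passed in neither. By edgeR and by DESeq2, PSMC2 fell in the CSB knockdown as well. PSMD5 rose in the CSA knockdown and fell in the CSB knockdown. Compared directly, 16 of the 51 genes were lower in the CSB than in the CSA knockdown and 4 were higher, against 11.3% and 18.1% of all genes tested. Among the 42 genes averaging 500 or more, 14 were lower (33.3%) and 4 higher, against 24.2% and 33.5% of all such genes. The libraries did not overlap and lay lower in the CSB knockdown for 24 genes and higher for 13, where 23.7% and 36.5% of all genes did so. Leaving out 1 library reduced these 20 calls to 13, 13, 14, 13, 8 and 6, in the order control 1 and 2, CSA 1 and 2, CSB 1 and 2.

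**Figure D1:**
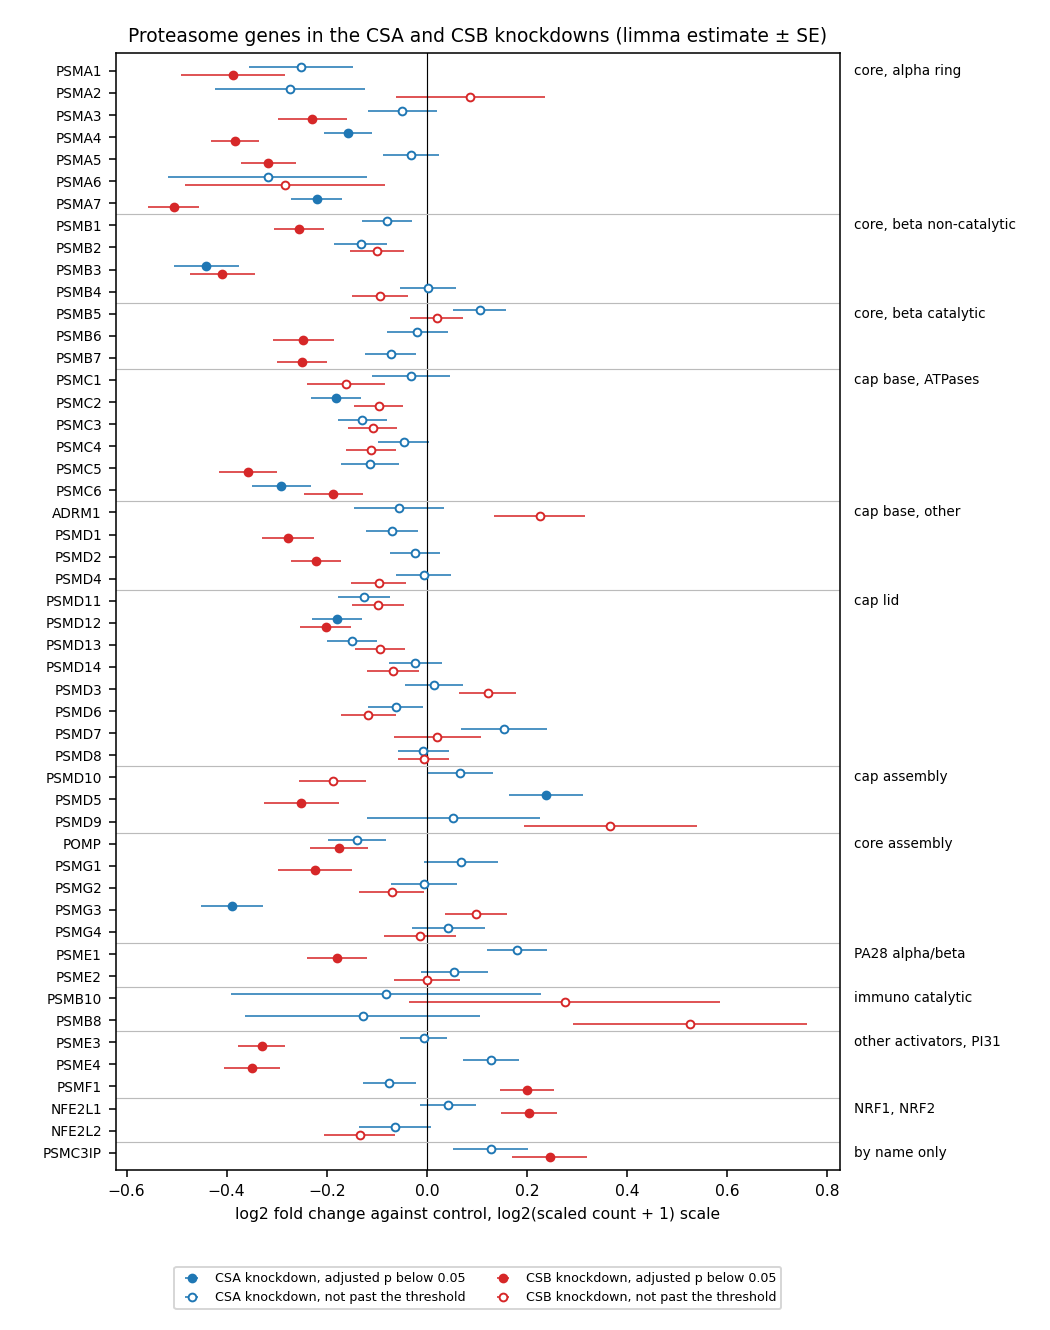
Log2 fold changes against control (horizontal axis, limma estimate ± SE, n = 2 libraries a group) for 50 proteasome genes grouped by role, in the CSA knockdown (blue) and the CSB knockdown (red). Filled points passed an adjusted p of 0.05. PSMB9 is left out because its estimate of -2.69 in the CSB knockdown would stretch the axis. Most red points of the core lie left of 0, and PSMG3 is the gene with a blue fall and a red point right of 0.

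The share of all gene reads taken by a set of genes needs no size factor. The 51 genes took 0.494 and 0.503% of the total in the controls, 0.481 and 0.483% with CSA depleted and 0.441 and 0.432% with CSB depleted. Every CSB library lay below every other library. The 14 core genes took 0.155 and 0.161% in the controls, 0.150 and 0.146% with CSA depleted and 0.130 and 0.124% with CSB depleted. The 18 cap genes took 0.220 and 0.221%, 0.209 and 0.215%, and 0.198 and 0.196% in the same order. Both classes were lowest in the CSB libraries. The geometric mean of the core over that of the cap was 0.581 and 0.596 in control cells, 0.576 and 0.549 with CSA depleted and 0.542 and 0.527 with CSB depleted. Without the 3 core genes that share many exon bases with another gene (PSMA1, PSMA2 and PSMA6), the ratio was 1.12 and 1.16, then 1.16 and 1.09, then 1.04 and 1.01. In both versions the CSB libraries were the lowest, and the CSA libraries did not lie apart from the controls in the second.

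**Figure D2:**
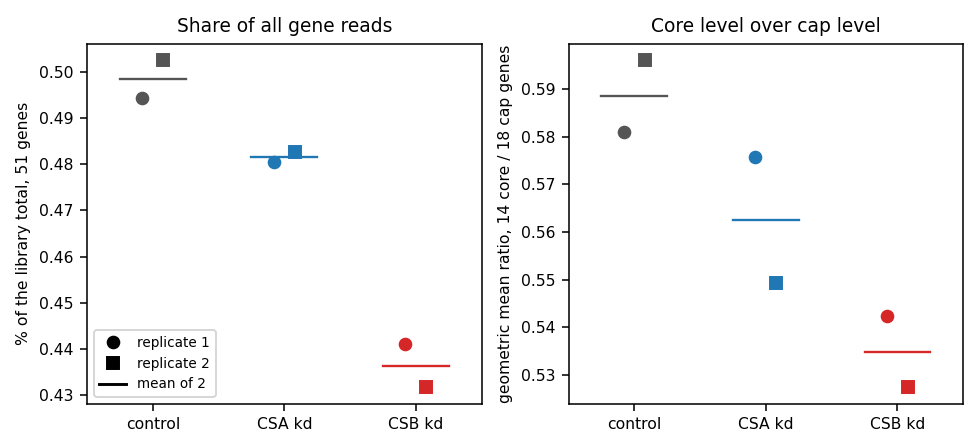
Left, share of all gene reads taken by the 51 proteasome genes in each library (% of the library total). Right, geometric mean scaled count of the 14 core genes over that of the 18 cap genes (no unit). Circles and squares are replicates 1 and 2, lines are the mean of 2, and neither vertical axis starts at 0. The CSB libraries are lowest in both, at 0.441 and 0.432% and at ratios of 0.542 and 0.527.

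Of the 7 genes of the alpha ring, which gates the barrel, 5 fell in the CSB knockdown, with a median log2 fold change of -0.32. In the CSA knockdown 2 of 7 fell. Of all genes averaging 500 or more, 21.5% fell in the CSB knockdown and 22.7% in the CSA knockdown. PSMA7 (alpha-type subunit 7, minus strand of chr20:62136735-62143440, hg38) had scaled counts of 5669 and 5771 in control cells, 4808 and 5017 with CSA depleted and 4154 and 3908 with CSB depleted. The 3 groups did not overlap, with the CSB libraries lowest. It fell by 14.1% in the CSA knockdown (log2 fold change -0.22 ± 0.05 SE, limma adjusted p = 0.0091) and by 29.5% in the CSB knockdown (-0.51 ± 0.05, adjusted p = 1.9e-05). The CSB fall passed in all 20 alternative analyses, and the direct difference between the knockdowns passed too (-0.29 ± 0.05, adjusted p = 9.2e-04). PSMA4 showed the same order, with 3356 and 3420 in control cells, 3064 and 3008 with CSA depleted and 2623 and 2573 with CSB depleted. Its log2 fold change was -0.16 ± 0.05 (limma adjusted p = 0.0374) in the CSA knockdown and -0.38 ± 0.05 (adjusted p = 9.9e-05) in the CSB knockdown.

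PSMA5 separated the knockdowns. It had 1491 and 1538 in control cells, 1465 and 1496 with CSA depleted and 1251 and 1181 with CSB depleted. Only the CSB libraries lay apart, with a log2 fold change of -0.32 ± 0.06 (limma adjusted p = 0.0012), against -0.03 ± 0.06 in the CSA knockdown (adjusted p = 0.757), and the difference between the knockdowns passed as well (-0.28 ± 0.06, adjusted p = 0.0018). In the CSB knockdown, PSMA3 fell by 14.5% and PSMA1 fell by 23.4%. PSMA2 and PSMA6, whose scaled counts lay between 43.9 and 111, did not pass in either knockdown.

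Among the non-catalytic beta subunits, PSMB3 fell in both knockdowns. Its scaled counts were 1740 and 1878 in control cells, 1403 and 1265 with CSA depleted and 1385 and 1337 with CSB depleted. All 4 knockdown libraries lay below both controls and the knockdowns overlapped each other. PSMB3 fell by 26.3% in the CSA knockdown (log2 fold change -0.44 ± 0.06, limma adjusted p = 4.2e-04), the largest fall among the 51 genes there, and by 24.7% in the CSB knockdown (-0.41 ± 0.06, adjusted p = 5.9e-04). PSMB1 had 2740 and 2821 in control cells, 2678 and 2585 with CSA depleted and 2360 and 2299 with CSB depleted, and fell in the latter alone (-0.26 ± 0.05, adjusted p = 0.0026). Neither PSMB2 nor PSMB4 passed in either knockdown, and PSMB4 was the highest of all 51 genes per length. By edgeR and by DESeq2, all 4 non-catalytic beta genes fell in the CSB knockdown.

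Of the catalytic subunits, PSMB6 and PSMB7 passed the test in the CSB knockdown and PSMB5 did not. PSMB6, the caspase-like subunit, had 1933 and 1976 in control cells, 1966 and 1890 with CSA depleted and 1741 and 1558 with CSB depleted, where it fell (-0.25 ± 0.06, limma adjusted p = 0.0109). PSMB7, the trypsin-like subunit, had 3217 and 3327, then 3059 and 3163, then 2808 and 2699, and fell in the CSB knockdown as well (-0.25 ± 0.05, adjusted p = 0.0031). PSMB5, the chymotrypsin-like subunit and the main target of proteasome inhibitor drugs, had 1545 and 1591 in control cells, 1679 and 1694 with CSA depleted and 1623 and 1555 with CSB depleted. The CSB libraries overlapped the controls for PSMB5, with a log2 fold change of 0.02 ± 0.05 (adjusted p = 0.845), and whether PSMB5 differs from PSMB6 and PSMB7 was not tested.

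**Figure D3:**
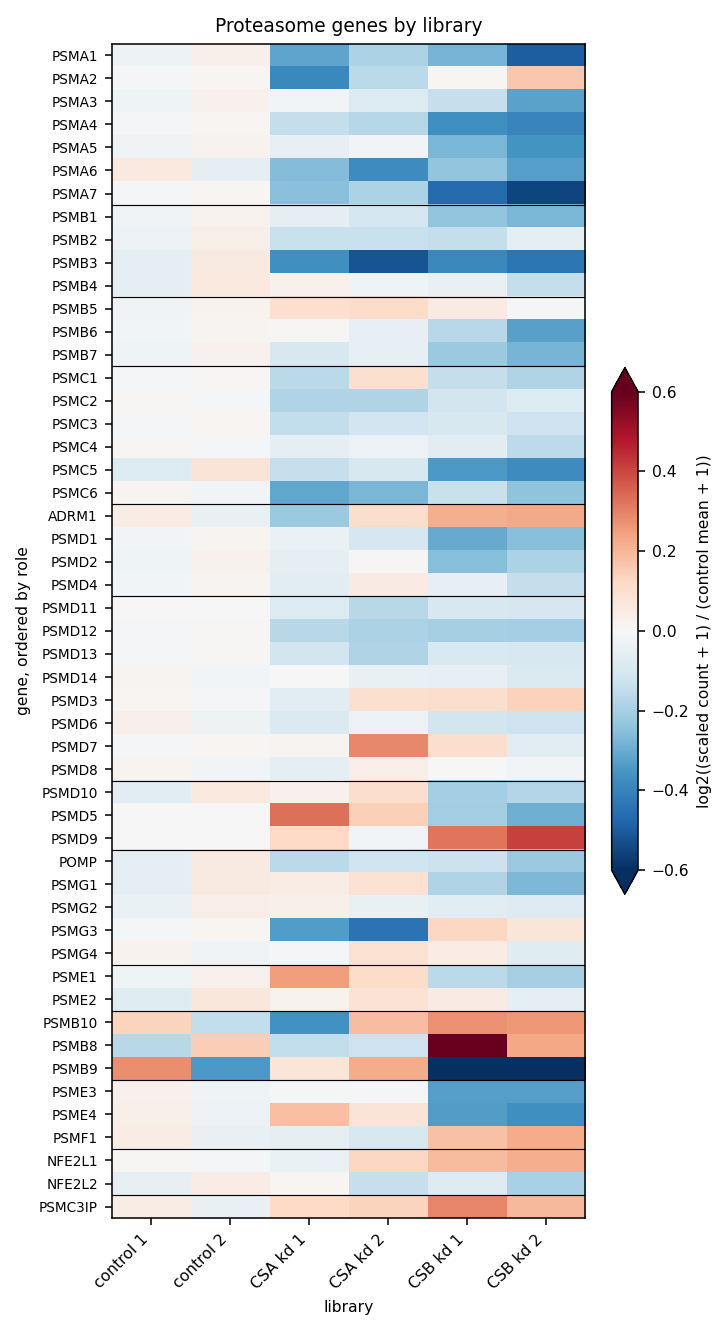
Scaled count of each of the 51 genes (rows, ordered by role) in each library (columns), as log2 of (scaled count + 1) over (control mean + 1), with red above and blue below the control mean. Colours stop at -0.6 and 0.6. The blue of the last 2 columns is densest in the core block at the top, and both CSA columns share it for PSMA7, PSMB3 and PSMC6.

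Promoters were examined because these genes are known to be raised together through a common element. The RefSeq table (GRCh38.p14) held promoters of 45 of the 51 genes, from 250 bases before to 50 after each start. PSMA7, PSMB1, PSMB6, PSMB7, PSMD4 and PSMG3 had no entry. The core of the antioxidant response element was searched as TGACNNNGC on both strands. It occurred in 16 of the 45 genes (35.6%) and in 4384 of all 27305 genes in the table (16.1%). Of the 17 genes with a promoter that fell in the CSB knockdown, 10 held it (58.8%), and of the other 28, 6 held it (21.4%). This split rests on the calls with the deposited size factors. The other scalings called 26 to 33 of the 51 genes lower, and the shares were not taken for those calls. By class the element was in 2 of 10 core genes (20%) and 6 of 17 cap genes (35.3%). The core genes without an entry were PSMA7, PSMB1, PSMB6 and PSMB7, and all of them fell in the CSB knockdown. The class shares therefore cannot tell whether the element went with the falls in the core. The CCAAT box, searched as CCAAT on both strands, was in 8 of those 17 genes, in 14 of the other 28 and in 39.7% of all genes. A match describes letters only, and binding was not measured.

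Shown here are 5 of the 10 matches in genes that fell in the CSB knockdown, chosen after their values were seen, so that core, lid, ATPase and activator genes are each represented. Each is the stretch around the match, on the gene's strand and upstream of a start in the table, with the match in capitals. In PSMC5 and PSME4 the match is on the opposite strand and reads as the reverse complement.
PSMA4: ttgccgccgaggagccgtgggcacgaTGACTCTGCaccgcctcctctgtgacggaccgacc
PSMB3: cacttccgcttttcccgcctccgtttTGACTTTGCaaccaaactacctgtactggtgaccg
PSMD12: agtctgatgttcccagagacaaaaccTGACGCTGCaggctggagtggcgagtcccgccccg
PSMC5: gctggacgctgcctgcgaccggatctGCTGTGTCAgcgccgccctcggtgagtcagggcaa
PSME4: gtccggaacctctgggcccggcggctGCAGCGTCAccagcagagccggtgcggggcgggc
The stretches lie at chr15:78540634-78540694 (plus strand, PSMA4), chr17:38752611-38752671 (plus, PSMB3), chr17:67366708-67366768 (minus, PSMD12), chr17:63827638-63827698 (plus, PSMC5) and chr2:53970994-53971053 (minus, PSME4). The match began 126, 104, 165, 57 and 34 bases upstream of the start, in that order.

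With the deposited size factors, 5 of 18 cap genes and 9 of 14 core genes fell in the CSB knockdown, with medians of -0.10 and -0.25. The cap count depended on the scaling: in the 5 other scalings 9 to 13 cap genes and 9 to 11 core genes fell, with medians of -0.20 to -0.16 and -0.36 to -0.31. Without the mean-variance trend, limma called 1 core gene and 0 cap genes lower in the CSB knockdown. Fewer genes of either class passed when 1 control or CSB library was left out. The medians were then -0.32 to -0.23 for the core and -0.12 to -0.10 for the cap. In the CSA knockdown 3 of 18 cap genes (16.7%) and 3 of 14 core genes (21.4%) fell. Of all genes tested 10.4% fell there, and of those averaging 500 or more 22.7%. In the CSB knockdown these backgrounds were 8.86% and 21.5%. A difference between the classes was not tested.

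Among the ATPases of the cap base, PSMC5 had 3025 and 3377 in control cells, 2908 and 2999 with CSA depleted and 2520 and 2468 with CSB depleted. All knockdown libraries lay below the controls, and the fall passed in the CSB knockdown (-0.36 ± 0.06, limma adjusted p = 7.3e-04), while 19.5% of its exon bases lie opposite FTSJ3. PSMC6 was lowest in the CSA knockdown, with 1342 and 1311 in control cells, 1070 and 1098 with CSA depleted and 1210 and 1121 with CSB depleted (-0.29 ± 0.06, adjusted p = 0.0040, and -0.19 ± 0.06, adjusted p = 0.0378). PSMC2 had 2328 and 2303, then 2043 and 2040, then 2144 and 2190, and fell in the CSA knockdown only (-0.18 ± 0.05, adjusted p = 0.0214), although its difference between the knockdowns did not pass (0.09 ± 0.05, adjusted p = 0.232). PSMC1, PSMC3 and PSMC4 passed in neither. By edgeR and by DESeq2, however, all 6 ATPases, PSMC2 included, fell in the CSB knockdown. In each of the 5 other scalings limma called 5 or 6 of them lower there.

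In the rest of the base, the scaffold PSMD1 had 2486 and 2546 in control cells, 2448 and 2346 with CSA depleted and 2042 and 2109 with CSB depleted (-0.28 ± 0.05, limma adjusted p = 0.0017). PSMD2, the other large scaffold, fell in the CSB knockdown as well, by 14.2%. The ubiquitin receptors PSMD4 and ADRM1 did not pass against control. ADRM1 was higher in the CSB than in the CSA knockdown (0.28 ± 0.09, adjusted p = 0.0340), a call lost in each of the other scalings. Of the 8 lid genes only PSMD12 fell, with 1850 and 1871 in control cells, 1656 and 1630 with CSA depleted and 1620 and 1615 with CSB depleted (-0.18 ± 0.05, adjusted p = 0.0266, and -0.20 ± 0.05, adjusted p = 0.0114). The other 7, including the deubiquitinase PSMD14, differed from their control mean by -7.81 to 8.80% in the CSB knockdown and by -9.79 to 11.7% in the CSA knockdown. By edgeR, 4 lid genes fell in the CSB knockdown.

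Among the chaperones that build the proteasome, PSMG3 and PSMD5 took opposite sides of control in the knockdowns. PSMG3, part of a pair that assembles the alpha ring, had 1016 and 1033 in control cells, 812 and 753 with CSA depleted and 1118 and 1078 with CSB depleted. The CSA libraries were the lowest and the CSB libraries the highest, with no overlap. PSMG3 fell in the CSA knockdown (-0.39 ± 0.06, limma adjusted p = 7.1e-04) and did not pass in the CSB knockdown (0.10 ± 0.06, adjusted p = 0.300). The direct difference was 0.49 ± 0.06 (adjusted p = 6.0e-05) and passed in all 20 alternatives. Its neighbour PSMG3-AS1, a noncoding gene, had 716 and 767 in control cells, 941 and 1003 with CSA depleted and 880 and 917 with CSB depleted, and rose in both. The genes share 3.06% of the exon bases of PSMG3, on opposite strands, and the strand setting of the counting is unknown.

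PSMD5, which holds cap ATPases during assembly, had 670 and 674 in control cells, 847 and 743 with CSA depleted and 581 and 549 with CSB depleted. It rose in the CSA knockdown (0.24 ± 0.07, limma adjusted p = 0.0443) and fell in the CSB knockdown (-0.25 ± 0.07, adjusted p = 0.0287). The rise passed in 5 of 20 alternatives and the fall in 15. PSMD10 was lower in the CSB than in the CSA knockdown (-0.25 ± 0.07, adjusted p = 0.0115) and did not pass against control. PSMG1, the partner of PSMG2 in the other alpha-ring chaperone, and POMP, which matures the beta ring, fell in the CSB knockdown, with log2 fold changes of -0.22 and -0.18 close to the threshold (adjusted p = 0.0462 and 0.0486). PSMG2, PSMG4 and PSMD9 passed in neither.

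The immunoproteasome was barely expressed. Per kilobase of gene, PSMB8 stood at 2.38 and 2.88% of PSMB5 in control cells, 2.22 and 2.23% with CSA depleted and 4.48 and 3.13% with CSB depleted. PSMB10 stood at 0.746 and 0.587% of PSMB7 in control cells, 0.547 and 0.785% with CSA depleted and 0.945 and 0.973% with CSB depleted. PSMB9 stood at 0.340 and 0.207% of PSMB6 in control cells, 0.286 and 0.333% with CSA depleted and 0 and 0.0749% with CSB depleted. By the length of the GENCODE v29 principal transcript in place of the deposited gene length, the controls had 3.11 and 3.77% for PSMB8, 0.622 and 0.490% for PSMB10 and 0.785 and 0.479% for PSMB9. By either length the constitutive subunit exceeded its inducible replacement in every library by a wide margin.

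PSMB9, whose counts were low, was the only gene of the 51 called with an estimate past 2-fold. It had 14 and 9 reads in the controls, 11 and 14 with CSA depleted and 0 and 3 with CSB depleted. Scaled for depth, the CSB knockdown had 0.126 of the control level (95% exact interval 0.0241 to 0.416) and 0.112 of the CSA level (0.0216 to 0.366), intervals that cover counting error only. The limma estimate on the log2(scaled count + 1) scale was -2.69 ± 0.62 (adjusted p = 0.0069). The call was lost without either control library, either CSA library or CSB replicate 1, with adjusted p up to 0.185, and by limma without the trend (0.0969). DESeq2 gave it no adjusted p, and edgeR called it (adjusted p = 0.0014). PSMB8, which adjoins it, had 41.8 and 52.1, then 42.3 and 42.9, then 82.6 and 55.3. Its CSB libraries were highest, but the difference did not pass (0.53 ± 0.23, adjusted p = 0.137), and 20.6% of its exon bases lie opposite other genes. PSMB10 had 24.9 and 20.3, then 17.3 and 25.7, then 27.5 and 27.2, and did not pass (0.28 ± 0.31, adjusted p = 0.596).

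**Figure D4:**
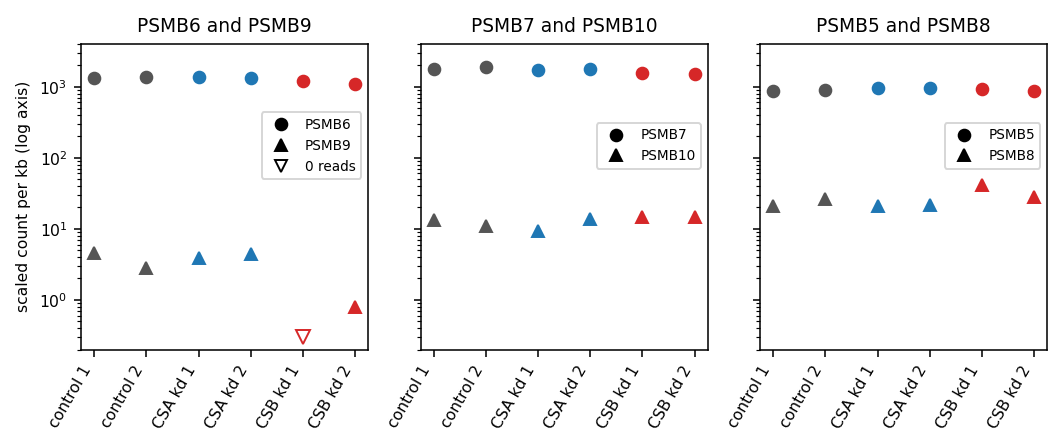
Scaled count per kilobase of gene (log axis) in each library for the constitutive catalytic subunits (circles) and their inducible replacements (triangles), with grey for control, blue for CSA knockdown and red for CSB knockdown. An open downward triangle marks 0 reads and has no level of its own. PSMB9 drops in both CSB libraries. PSMB10 lies slightly highest in them, a difference that did not pass the test.

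The interferon-inducible activator PA28 is made of PSME1 and PSME2. PSME1 had 1545 and 1596 in control cells, 1868 and 1697 with CSA depleted and 1405 and 1367 with CSB depleted. The CSA libraries were highest and the CSB libraries lowest. It fell in the CSB knockdown (-0.18 ± 0.06, limma adjusted p = 0.0470), missed the threshold in the CSA knockdown (0.18 ± 0.06, adjusted p = 0.0554), and differed between the knockdowns (-0.36 ± 0.06, adjusted p = 5.3e-04). PSME2 had 1014 and 1117, then 1081 and 1132, then 1102 and 1028, with all groups overlapping (0.00 ± 0.07 in the CSB knockdown, limma unadjusted p = 0.998).

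Of 11 other interferon and antigen presentation genes, 5 fell and 0 rose in the CSA knockdown by limma, with 1 higher at an unadjusted p below 0.05 and 0 higher by edgeR and DESeq2. The falls included B2M (-1.19 ± 0.05), the light chain of MHC class I. In the CSB knockdown 3 rose and 1 fell. Over all genes tested, 10.4% fell and 8.37% rose in the CSA knockdown, and 8.86% fell and 14.8% rose in the CSB knockdown, the background for each list of pathway genes. The CSB rises included HLA-C (0.56 ± 0.06), a heavy chain of MHC class I. TAP1, the peptide transporter gene beside PSMB9, had 50.7 and 57.9 in control cells, 37.9 and 33.4 with CSA depleted and 69.4 and 66.0 with CSB depleted and did not pass against control.

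The activators outside interferon control fell in the CSB knockdown. PSME3, the nuclear activator PA28 gamma, had 3978 and 3835 in control cells, 3891 and 3885 with CSA depleted and 3102 and 3111 with CSB depleted. The controls and CSA libraries overlapped and the CSB libraries lay below both (-0.33 ± 0.05, limma adjusted p = 2.9e-04). PSME4, the activator PA200, had 2370 and 2255 in control cells, 2620 and 2438 with CSA depleted and 1835 and 1793 with CSB depleted (-0.35 ± 0.06, adjusted p = 5.9e-04). The difference between the knockdowns was larger still, at -0.48 ± 0.06 (adjusted p = 3.0e-05). PSMF1, the inhibitor PI31, went the other way, with 2217 and 2084, then 2068 and 2013, then 2430 and 2510. It was called higher in the CSB knockdown (0.20 ± 0.05, adjusted p = 0.0162) but in 0 of the 5 other scalings by limma.

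NFE2L1, which encodes NRF1, was the most abundant of the transcription factor pair. It had 6594 and 6527 in control cells, 6392 and 7144 with CSA depleted and 7478 and 7641 with CSB depleted. The CSB libraries were the highest (0.20 ± 0.06, limma adjusted p = 0.0197), and no other scaling or count model called the rise. NFE2L2, which encodes NRF2, had 893 and 954, then 930 and 839, then 875 and 808, and did not pass (-0.13 ± 0.07, adjusted p = 0.217). It was called lower in the CSB knockdown by edgeR and with the gene length trend removed. Transcript levels say nothing of NRF1 or NRF2 protein, which is controlled by degradation and cleavage.

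Genes that process NRF1 were mixed. DDI2, the protease that cleaves it, fell in the CSA knockdown (-0.21 ± 0.06) and in the CSB knockdown (-0.31 ± 0.06). SYVN1, a ligase of the endoplasmic reticulum that degrades it, rose in both (0.24 ± 0.06 and 0.37 ± 0.06). In all, 2 of 5 rose and 1 fell in each knockdown. Of 10 controllers and targets of NRF2, 6 fell and 1 rose in the CSA knockdown. The falls were not all of targets, since KEAP1, a controller of NRF2, was among them (-0.20 ± 0.05). The rise was of MAFG (0.16 ± 0.05). SLC7A11 (-1.97 ± 0.35), HMOX1 (-0.96 ± 0.21), NQO1 (-0.69 ± 0.08) and TXNRD1 (-0.55 ± 0.05) fell. In the CSB knockdown 4 rose and 1 fell, with MAFK (0.47 ± 0.09) and NQO1 (0.34 ± 0.08) among the rises and TXNRD1 (-0.34 ± 0.05) the fall. There edgeR also called 4 higher and 1 lower, while DESeq2 called 1 higher and 1 lower.

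Upstream of the proteasome, 2 of 4 ubiquitin genes rose and 0 fell in the CSA knockdown by limma, while edgeR called 3 higher and 1 lower. RPS27A, which encodes ubiquitin fused to a ribosomal protein, was among the rises (0.26 ± 0.07). In the CSB knockdown limma called 1 ubiquitin gene higher. There edgeR and DESeq2 called 0, each with 1 higher at an unadjusted p below 0.05. Of 6 genes that activate or edit ubiquitin, the activating enzyme UBA6 (0.32 ± 0.05) and the proteasome-bound ligase UBE3C (0.22 ± 0.06) rose in the CSA knockdown. UCHL5 (-0.21 ± 0.06), a proteasome-bound deubiquitinase, fell there. In the CSB knockdown UBE3C (-0.23 ± 0.06) and the deubiquitinase USP14 (-0.25 ± 0.06) fell. UBA6 and UBE3C were lower in the CSB than in the CSA knockdown by -0.47 ± 0.05 and -0.46 ± 0.06 (limma adjusted p = 2.1e-05 and 8.5e-05).

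Among 12 shuttle and unfoldase genes, 3 rose and 1 fell in the CSA knockdown, and 2 rose and 4 fell in the CSB knockdown, with DDI2 counted here as well. The CSB falls were led by FAF1 (-0.73 ± 0.06, limma adjusted p = 5.8e-06), a cofactor of the unfoldase VCP. Its scaled counts were 1215 and 1195 in control cells, 1255 and 1140 with CSA depleted and 716 and 737 with CSB depleted. UBQLN1 (-0.35 ± 0.05) and RAD23B (-0.27 ± 0.05), which carry ubiquitinated proteins to the cap, fell there too. Of 9 proteasome-bound factors, AKIRIN2, which brings proteasomes into the nucleus, fell in the CSA knockdown (-0.35 ± 0.09). In the CSB knockdown AKIRIN2 (0.33 ± 0.09), ZFAND5 (0.35 ± 0.05) and TXNL1 (0.16 ± 0.05) rose, and KIAA0368, which encodes the proteasome adaptor ECPAS, fell (-0.20 ± 0.05). The rises of AKIRIN2 and TXNL1 in the CSB knockdown were lost in each of the other scalings. Over all 56 pathway genes, 10 rose and 14 fell in the CSA knockdown, and 15 rose and 9 fell in the CSB knockdown. Of the 43 that averaged 500 or more, 10 rose and 10 fell (23.3% each) in the CSA knockdown, where 17.9% and 22.7% of all such genes did. In the CSB knockdown 14 of them rose (32.6%) and 9 fell (20.9%), against 29.6% and 21.5%. These shares are near the background. With the 5 other scalings, 5 to 12 rose and 11 to 12 fell in the CSA knockdown, and 7 to 9 rose and 11 to 14 fell in the CSB knockdown. The CSA calls of UCHL5 and DDI2 were among those lost under TMM scaling. Without any 1 of the control or CSB libraries, at most 2 pathway genes rose and 3 fell in the CSB knockdown, and without either CSA library 13 to 14 rose and 9 to 10 fell. In the CSA knockdown, leaving out 1 library left at most 3 rises and 3 to 10 falls.

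By the deposited gene lengths, levels per length in the controls ran from 3.68 ± 1.21 scaled counts per kilobase (SD, n = 2) for PSMB9 to 3475 ± 198 for PSMB4, with PSMA7 next at 3269 ± 41.1. PSMB4 and PSMA7 differ little beyond their spread by that length, and PSMB7 follows at 1831 ± 43.6. At the bottom, PSMB9 is followed by PSMD9 (6.70 ± 0.0126), PSMA6 (8.81 ± 0.511), PSMB10 (12.2 ± 1.76), PSMA2 (18.6 ± 0.245) and PSMB8 (23.4 ± 3.64). The order depends on the length used. By the principal transcript every level is higher, from 1.07 times to 12.4 times (PSMG4, 685 in place of 55.1). PSMB4 (7779) and PSMA7 (5743) remain highest and PSMD4 (3956) comes before PSMB7 (3339). At the bottom the order becomes PSMB9 (14.5), PSMB10 (18.5), PSMD9 (21.1), PSMB8 (41.8), PSMA6 (55.7) and PSMA2 (66.8). PSMA6 and PSMA2 are obligate subunits of the same ring as PSMA7, present in equal number in each particle. Both share exon bases with another gene on the same strand in GENCODE v29, 14.1% for PSMA6 and 14.6% for PSMA2. In all, 6 genes shared over 10%, the others being PSMB10 (34.8%), PSMA1 (24.7%), PSMD9 (19.9%) and NFE2L2 (17.6%). All 6 lay below the median of the 51 genes of 406 scaled counts per kilobase, and below the median of 758 by the principal transcript. Reads that fit more than 1 gene may have been dropped or split by the counting, whose rule the labels do not state, so the levels and changes of these 6 genes are uncertain. Because the strand setting is unknown, genes that share bases on the opposite strand may be affected too. Such shares were 75.8% for PSMC1, 30.7% for PSMD7 and 29.9% for PSMC3IP.

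**Figure D5:**
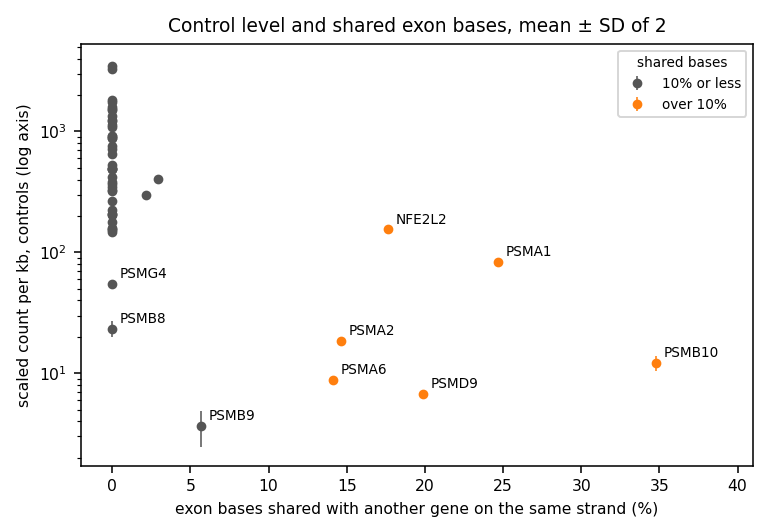
Control level of each of the 51 genes (scaled count per kilobase, log axis, mean ± SD of 2 libraries) against the percent of its exon bases shared with another gene on the same strand. Orange points share over 10%. All 6 orange points lie at or below NFE2L2, while the genes that share none run up to 3475 for PSMB4.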

How the data were processed

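RNA-seq libraries of SH-SY5Y cells (2 per group) were read from 6 deposited gene tables. The submitters used HISAT2 2.0.4, build hg38 and FastQC, per the submitters' processing notes. How reads were counted, with which annotation and strand setting, and how they were normalized is not stated there. The deposited values form a signal; per the file headers they are FPKM, yet they carry no gene length. In each library 100% were whole multiples of the smallest value (tolerance 0.01), so they are gene reads over 1 size factor, here called scaled counts. A gene without an entry was taken as 0. Recovered reads served the count models.

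The test took every gene that averaged 1 or more in any group. In R 4.3.3, log2(scaled count + 1) was modelled by limma 3.58.1, trend option on, over 3 groups and 6 libraries with 3 residual degrees of freedom. The pseudocount of 1 makes fold changes of low genes smaller than the ratio of their levels. Benjamini-Hochberg adjustment ran over all genes tested, at 0.05, and every adjusted p is limma's unless edgeR 4.0.16 or DESeq2 1.42.0 is named. The fit was tested on simulated data. Levels per kilobase use the deposited gene lengths. Exon overlaps came from GENCODE v29, and promoters from RefSeq (GRCh38.p14).

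The 51 genes, the role classes and the pathway lists were chosen with earlier results of these data known. Full statistics were given for genes past the threshold (the 10 smallest adjusted p per knockdown against control), for NFE2L1, NFE2L2 and for the 8 catalytic, immunoproteasome and PA28 genes, and for at most 4 genes per pathway list. Other genes whose values are given were chosen after their values were seen. Some genes of the pathway lists are counted but not reported singly here. Alternatives were pseudocounts of 0.5 and 4, no filter and a group mean of at least 10, 5 other scalings, limma without the trend, only the groups compared, a replicate block, edgeR, DESeq2, and leaving out each library. The background of genes averaging 500 or more, the core over cap ratio without overlapping genes, and another gene length were added after seeing the data.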

Additional observations from a re-analysis of the deposited data

Results flagged for a closer look

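The direct comparison of the CSB with the CSA knockdown passed for 20 of the 51 genes (limma, adjusted p below 0.05 over all genes tested). For 9 of them the estimates lay on opposite sides of control. Among these the log2 difference was -2.87 for PSMB9, which rests on 3 reads in the CSB knockdown. It was -0.49 for PSMD5, -0.48 for PSME4, -0.36 for PSME1, -0.29 for PSMG1 and -0.25 for PSMD10. It was 0.49 for PSMG3, 0.28 for PSMF1 and 0.28 for ADRM1. The differences for PSMG3 and PSME4 were called in all 20 alternatives, that for PSMD5 in 19, PSME1 in 17, PSMD10 and PSMF1 in 16, PSMG1 in 15, PSMB9 in 14 and ADRM1 in 5.

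For the other 11 both estimates lay on the same side of control. The log2 difference was -0.32 for PSME3, -0.29 for PSMA7, -0.28 for PSMA5, -0.24 for PSMC5, -0.23 for PSMB6, -0.22 for PSMA4, -0.21 for PSMD1 and -0.20 for PSMD2. It was -0.18 for PSMB1 and for PSMB7, and 0.16 for NFE2L1. The difference for NFE2L1 was called in 3 of 20 alternatives and the others in 14 to 19.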

How the results depend on the processing

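The counts of proteasome genes called were 8 (CSA against control), 24 (CSB against control) and 20 (CSB against CSA). Without the mean-variance trend limma called 0, 1 and 3, and for the CSA knockdown 5 genes were then lower at an unadjusted p below 0.05, while edgeR called 8 and DESeq2 6. With only the groups compared in the fit, 5 genes were called in the CSA knockdown. Leaving out 1 library gave 0 to 6, 4 to 19 and 6 to 14 calls. The cause was not tested. The other alternatives kept each count within 1.5 times, and no called gene turned direction.

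With the replicate number as a block, limma called 7, 21 and 19 genes. Same-numbered libraries did not deviate together (r = -0.0402, -0.0323 and -0.0316 over 13397 genes), so the numbers do not pair them. Among all genes called, the share that was higher moved in the CSB against CSA comparison from 61.5% to between 45.1 and 52.7% under the other scalings. With 2 libraries a group, 3 residual degrees of freedom carry every test. PSMB9, PSMB8, PSMB10, PSMA2, PSMA6 and PSMD9 had at most 100 scaled counts on average in the controls, which limits what could be called.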
